A study of Homo sapiens with 17 samples.

Results

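Ribosome biogenesis and nucleolar genes were examined in 2 human lymphoma cell lines after inhibition of p300 and CBP, and in clones of 1 of these lines labelled as BCL11A knockouts. The genes were 48 listed symbols, taken by their Ensembl identifiers from the 63677 genes in each table of read counts. They were grouped by textbook role into 6 nucleolar hub genes, 4 genes of RNA polymerase I, 4 of the box C/D and 3 of the box H/ACA ribonucleoproteins, 15 of small-subunit and 16 of large-subunit assembly. Karpas-422 and WSU-DLCL2 are established lines from diffuse large B cell lymphoma. The groups were Karpas-422 with A-485 for 48 h and untreated Karpas-422, WSU-DLCL2 with A-485 for 48 h, and clones 1 to 3 of WSU-DLCL2 labelled BCL11AKO and untreated WSU-DLCL2, with 3 libraries each. A-485 is an inhibitor of the catalytic domain of the histone acetyltransferases p300 and CBP, and BCL11A encodes a zinc-finger transcription factor. The names of the count tables call the untreated groups DMSO, the usual solvent of such compounds. The samples hold no clone without the edit, so differences among clones and the labelled edit cannot be told apart. The labels do not say whether the libraries of a group came from separate cultures, and p-values then measure only library spread, which may be technical.

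The labels conflict for untreated WSU-DLCL2 replicate 3, which is untreated by title and source name but has a treatment entry of A-485. Results that rest on it are given with and without it, apart from those of the other scalings and tools, which were fitted only with it. The libraries were of 2 kinds. The 9 shallow ones, from Karpas-422 and from WSU-DLCL2 with A-485, held 6689320 to 8897051 counts in genes, and 43.0% to 55.5% of their reads had no unique alignment. The 6 deep ones, from the clones and untreated WSU-DLCL2, held 21233752 to 37286727 counts, with 7.73% to 9.24% of reads lacking a unique alignment. A-485 and the kind of library cannot be told apart within WSU-DLCL2, and its A-485 levels are set only beside Karpas-422. Of 10 B cell markers, 9 stood at 1 CPM or more in every group (CPM, counts scaled to a common library total), and CR2 was at 0 in 4 of the 5 groups. Of 15 markers of other cell types, only the T cell genes CD3D and CD3G reached 1 CPM, in both Karpas-422 groups, with the list summing to 528 to 563 CPM with A-485 and 634 to 675 CPM untreated. Their part in the results below was not tested. In the WSU-DLCL2 groups that list summed to 0.149 to 1.44 CPM.

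Ribosome biogenesis starts in the nucleolus, where RNA polymerase I transcribes the large ribosomal RNA precursor. Small nucleolar ribonucleoproteins guide the methylation (box C/D) and pseudouridylation (box H/ACA) of that precursor, and assembly factors, helicases and GTPases fold and cleave it while ribosomal proteins join the small and large subunits. The pathway sets the protein synthesis capacity of dividing cells, and many of its genes are known targets of MYC, a transcription factor that drives growth in B cell lymphomas.

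MYC with its partner MAX binds the letters CACGTG (the E-box), so promoter windows of the genes were searched for it. RefSeq windows (GRCh38.p14), which run from 250 bases before to 50 after each gene's start, were at hand for 39 of the 48 genes. The motif, which reads the same on both strands, lay in a window of 17 of these 39 genes (43.6%). It lay in a window of 12.8% of the 8240 symbols tested in Karpas-422 that had windows. Counted by single window, 7.26% of all 35116 held it. Of the 18 matches, 17 began between position -64 and position 36, the first transcribed base being position 1. The second search was for TCTCGCG or its reverse complement CGCGAGA, letters that recur in housekeeping promoters. It matched in 7 of the 39 genes (17.9%), against 8.14% of the tested symbols. Counted by single window, 3.49% of all held it. A match is a description of these letters and not a measured site. The stretches shown first are the last 100 bases before the start (for RRP9 with its first transcribed base), on the strand of the gene, for genes with levels described below, with the motif in capitals. The NPM1 stretch holds CGCGAGA and the other stretches hold CACGTG.
LYAR (chr4:4290022-4290121, minus strand): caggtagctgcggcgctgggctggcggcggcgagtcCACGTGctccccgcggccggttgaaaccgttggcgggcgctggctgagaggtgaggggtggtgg
DDX21 (chr10:68956547-68956646, plus strand): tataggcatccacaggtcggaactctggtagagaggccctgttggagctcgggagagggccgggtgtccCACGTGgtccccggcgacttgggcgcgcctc
NAT10 (chr11:34105529-34105628, plus strand): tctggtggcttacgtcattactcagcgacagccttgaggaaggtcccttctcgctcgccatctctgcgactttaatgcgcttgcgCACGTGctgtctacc
UTP20 (chr12:101280005-101280104, plus strand): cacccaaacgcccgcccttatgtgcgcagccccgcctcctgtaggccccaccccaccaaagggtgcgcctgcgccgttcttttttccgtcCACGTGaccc
RRP9 (chr3:51941904-51942004, minus strand): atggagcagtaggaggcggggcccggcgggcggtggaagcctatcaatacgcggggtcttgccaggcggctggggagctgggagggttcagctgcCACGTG
NPM1 (chr5:171387749-171387848, plus strand): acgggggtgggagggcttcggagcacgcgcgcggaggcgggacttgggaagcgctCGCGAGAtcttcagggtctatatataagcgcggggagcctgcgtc

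In the other 12 genes with CACGTG a match lay after the start, and in IMP4 a second one began at position -203. For 8 of the 12 the match after the start is shown with 10 bases on either side, the first 5 being genes that fell with A-485, NOC3L a gene that rose, and GNL3 and FBL genes that were not called.
WDR43 (chr2:28894660-28894685, plus strand): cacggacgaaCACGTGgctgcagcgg
MRTO4 (chr1:19251809-19251834, plus strand): tcttccgccgCACGTGgattcagcgc
IMP4 (chr2:130342902-130342927, plus strand): ctcccggaccCACGTGgaagcggcac
NOP14 (chr4:2963376-2963401, minus strand): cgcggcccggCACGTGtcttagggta
BYSL (chr6:41921517-41921542, plus strand): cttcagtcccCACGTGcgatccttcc
NOC3L (chr10:94362905-94362930, minus strand): gggacttcggCACGTGtgtcattccc
GNL3 (chr3:52686028-52686053, plus strand): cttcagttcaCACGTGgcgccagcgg
FBL (chr19:39846358-39846383, minus strand): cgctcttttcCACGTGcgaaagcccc

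In Karpas-422, most ribosome biogenesis genes were lower with A-485. Of the 48 genes, 47 passed the filter on low counts, and 37 of these fell while 4 rose at an adjusted p under 0.05 (quasi-likelihood test of edgeR, Benjamini-Hochberg adjusted over 11846 genes). The identifier of BOP1, a large-subunit factor, had 0 counts in all 15 libraries. Thus 78.7% of the tested genes fell, where 33.7% of all tested genes did, and 8.51% rose, where 37.6% of all did. A fall of at least 2-fold was called for 36 of the 47 (76.6%, against 11.8% of all genes), and one of at least 4-fold for 9 (19.1%, against 1.99%). When libraries were scaled by their totals alone these counts were 24 (51.1%, against 5.36% of all genes) and 1 (RRS1; 2.13%, against 1.16%). The median log2 fold change was -1.48 over the 47 genes and 0.08 over all genes. In 37 genes every A-485 library lay below every untreated one, in 3 every A-485 library lay above, and in 7 the groups overlapped, where 34.9% of all tested genes lay wholly below and 39.8% wholly above. Reads from a whole culture cannot show whether fewer cells of a kind or less RNA per cell lies behind a lower level, and CPM are relative to all counted RNA.

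**Figure D1:**
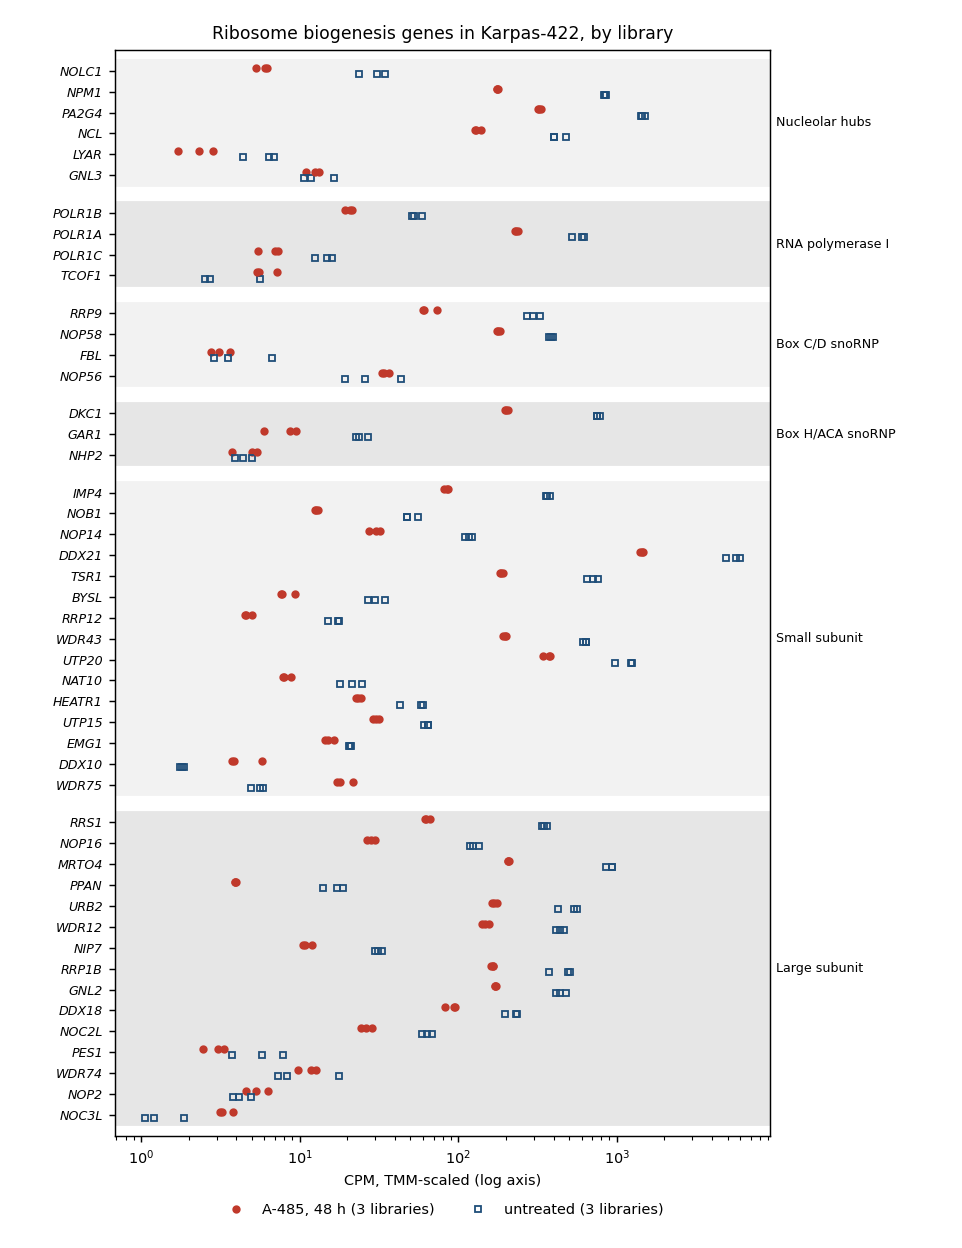
CPM (TMM-scaled, log axis) of the 47 tested genes in each Karpas-422 library, by role, with filled circles for 3 A-485 libraries and open squares for 3 untreated ones. The A-485 circles lie left of the untreated squares in 37 genes and right of them in WDR75, DDX10 and NOC3L, and the groups overlap in 7.

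Among the nucleolar hub genes, 5 of 6 fell, with a median log2 fold change of -1.93. NPM1 encodes nucleophosmin, an abundant histone chaperone of the nucleolar granular component. It stood at 176, 179 and 177 CPM in the A-485 libraries, against 827, 850 and 848 CPM in the untreated libraries. Each group kept to a narrow band, and the bands were far apart. NPM1 fell by 2.25 ± 0.05 on the log2 scale (SE; adjusted p 1.97e-13, edgeR's quasi-likelihood test). Its means were 177 ± 1.51 CPM with A-485 and 842 ± 12.7 CPM untreated (SD, n = 3 each). By name, 45 annotated pseudogenes of NPM1 exist, so its reads may be shared with near-identical copies. PA2G4, which encodes a nucleolar protein that binds ribosomal RNA, stood at 335, 321 and 321 CPM with A-485, against 1446, 1508 and 1427 CPM untreated. It fell by 2.17 ± 0.05 on the log2 scale (SE), with the groups as clearly apart. NOLC1, a chaperone of small nucleolar ribonucleoproteins, averaged 5.87 ± 0.463 CPM with A-485 and 29.7 ± 5.51 CPM untreated (SD, n = 3 each). NCL, which encodes the RNA-binding protein nucleolin, averaged 132 ± 5.36 CPM with A-485 and 428 ± 47.0 CPM untreated. LYAR, a zinc-finger protein gene whose promoter stretch is printed above, was measured at low levels, 2.3 ± 0.564 CPM with A-485 and 5.88 ± 1.31 CPM untreated. These 3 genes fell by 2.32, 1.69 and 1.36 on the log2 scale. GNL3, which encodes the GTPase nucleostemin, was not called, at 12.2 ± 1.10 CPM with A-485 and 13.0 ± 3.13 CPM untreated (log2 fold change -0.10 ± 0.17, SE).

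Of the RNA polymerase I genes, 3 of 4 fell and 1 was called higher. POLR1A encodes the largest subunit of the enzyme, and stood at 239, 229 and 231 CPM with A-485, against 520, 608 and 622 CPM untreated. POLR1B, the second largest subunit, stood at 20.8, 19.4 and 21.4 CPM with A-485, against 51.4, 59.2 and 52.8 CPM untreated. Neither gene's groups overlapped, and they fell by 1.32 ± 0.07 and 1.41 ± 0.10 on the log2 scale (SE). POLR1C, a subunit shared with RNA polymerase III, fell by 1.14 ± 0.16. TCOF1 encodes treacle, a cofactor of RNA polymerase I, and was called higher with a log2 fold change of 0.69 ± 0.27 (SE; adjusted p 0.0344, edgeR's quasi-likelihood test). Its libraries stood at 5.56, 5.41 and 7.20 CPM with A-485, against 5.66, 2.73 and 2.54 CPM untreated. One untreated library thus lay among the A-485 libraries, and these values rest on 15 to 71 counts per library. The TCOF1 call was lost with DESeq2 (adjusted p 0.116) and on leaving out A-485 replicate 1 (0.0560) or 3 (0.138) or untreated replicate 2 (0.154) or 3 (0.126).

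The box C/D genes were divided. RRP9, a component of the ribonucleoprotein that starts cleavage of the precursor, stood at 74.0, 60.8 and 60.04 CPM with A-485, against 295, 272 and 329 CPM untreated. NOP58, a core protein of all box C/D particles, stood at 185, 179 and 177 CPM with A-485, against 376, 383 and 398 CPM untreated. Both fell with no overlap, RRP9 by 2.20 ± 0.09 and NOP58 by 1.10 ± 0.05 on the log2 scale (SE). FBL, the methyltransferase of these particles, was not called at 3.17 ± 0.452 CPM with A-485 and 4.39 ± 2.06 CPM untreated (SD, n = 3 each), and NOP56, a further core protein, was not called at 34.5 ± 1.70 CPM and 29.6 ± 12.5 CPM. In both genes untreated replicate 1 was the highest of the 6 libraries, at 6.74 CPM for FBL and 43.4 CPM for NOP56, and their groups overlapped. Without that library NOP56 was called higher, with a log2 fold change of 0.60 and an adjusted p of 5.22e-05 (edgeR's quasi-likelihood test). Without untreated replicate 2 FBL was called lower, at -0.74.

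Among the box H/ACA genes, DKC1 encodes the pseudouridine synthase dyskerin. It stood at 199, 205 and 201 CPM with A-485, against 754, 789 and 755 CPM untreated. GAR1, a core protein of these particles, stood at 6.01, 8.75 and 9.53 CPM with A-485, against 23.7, 27.0 and 22.7 CPM untreated. The libraries of each gene split cleanly by treatment, and DKC1 fell by 1.93 ± 0.05 and GAR1 by 1.59 ± 0.16 on the log2 scale (SE). NHP2, a further core protein, was not called at 4.71 ± 0.860 CPM with A-485 and 4.43 ± 0.548 CPM untreated (SD, n = 3 each).

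All 15 small-subunit genes were called, 13 lower and 2 higher, with a median log2 fold change of -1.68. IMP4, a protein of the early processing complex, stood at 81.9, 85.6 and 85.8 CPM with A-485, against 358, 382 and 365 CPM untreated. WDR43, which links transcription of the precursor to its processing, stood at 201, 197 and 192 CPM with A-485, against 635, 644 and 617 CPM untreated. The untreated libraries of both genes were all several times higher, and the falls were 2.12 ± 0.05 and 1.68 ± 0.05 on the log2 scale (SE). DDX21, an RNA helicase that also binds RNA polymerase I and II genes, stood at 1393, 1434 and 1471 CPM with A-485, against 4884, 5976 and 5680 CPM untreated. It fell by 1.94 ± 0.07. UTP20, a scaffold protein of the early small-subunit particle, averaged 365 ± 18.4 CPM with A-485 and 1148 ± 154 CPM untreated, and the RNA acetyltransferase gene NAT10 averaged 8.25 ± 0.517 CPM with A-485 and 21.4 ± 3.41 CPM untreated (SD, n = 3 each), with no overlap in either. The others that fell, with their log2 fold changes, were NOB1, the endonuclease of the last small-subunit cleavage (-1.98), NOP14 (-1.97), TSR1 (-1.91), BYSL (-1.88), RRP12 (-1.83), UTP20 (-1.65), NAT10 (-1.36), HEATR1 (-1.19), UTP15 (-1.07) and the RNA methyltransferase EMG1 (-0.44). EMG1 was the least lowered and lost its call when libraries were scaled by their totals alone (log2 fold change -0.03, adjusted p 0.841).

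WDR75 and DDX10 were called in the opposite direction. WDR75 belongs to the same early complex as WDR43, HEATR1 and UTP15, and DDX10 encodes an RNA helicase. WDR75 stood at 17.1, 17.9 and 21.6 CPM with A-485, against 5.66, 5.92 and 4.91 CPM untreated. DDX10 stood at 5.79, 3.74 and 3.85 CPM with A-485, against 1.75, 1.82 and 1.86 CPM untreated. In both genes every A-485 library lay above every untreated one, and they rose by 1.77 ± 0.16 and 1.28 ± 0.27 on the log2 scale (SE; adjusted p 2.60e-07 and 0.000765, edgeR's quasi-likelihood test). The DDX10 values rest on 38 to 52 counts per A-485 library and 11 to 13 counts per untreated one.

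Of the 15 large-subunit genes tested, 12 fell, 1 rose and 2 were not called, with a median log2 fold change of -1.48. RRS1, which brings a small ribosomal RNA into the large subunit, had the lowest log2 fold change of all 47 genes. It stood at 62.2, 66.1 and 62.5 CPM with A-485, against 337, 347 and 361 CPM untreated. MRTO4, which holds the place of a stalk protein during assembly, stood at 208, 207 and 209 CPM with A-485, against 857, 935 and 939 CPM untreated. The A-485 libraries of both genes lay close together and far below the untreated ones. RRS1 fell by 2.45 ± 0.06 and MRTO4 by 2.13 ± 0.05 on the log2 scale (SE). PES1 and WDR12, whose products form a complex with that of BOP1, had log2 fold changes of -1.001 ± 0.26 and -1.57 ± 0.06 (SE), both called. PES1 rests on low levels, 2.95 ± 0.448 CPM with A-485 and 5.77 ± 2.05 CPM untreated (SD, n = 3 each), and lost its call with library totals alone (adjusted p 0.0679). The remaining genes that fell, with their log2 fold changes, were NOP16 (-2.16), PPAN (-2.08), URB2 (-1.59), NIP7 (-1.51), RRP1B (-1.48), the GTPase GNL2 (-1.38), the helicase DDX18 (-1.28) and NOC2L (-1.28). PPAN lies within a readthrough gene, so its reads may be shared. NOC3L, whose yeast counterpart works with that of NOC2L in moving precursor particles out of the nucleolus, rose by 1.31 ± 0.28. Its libraries stood at 3.78, 3.24 and 3.14 CPM with A-485, against 1.21, 1.06 and 1.86 CPM untreated, on 31 to 34 and 7 to 11 counts. The A-485 libraries of NOC3L were all above the untreated ones, and both groups were low. WDR74 and the RNA methyltransferase NOP2 were not called, with log2 fold changes of 0.02 ± 0.29 and 0.33 ± 0.21 (SE). WDR74 was called higher without untreated replicate 1 (0.55), and NOP2 with library totals alone (0.74).

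**Figure D2:**
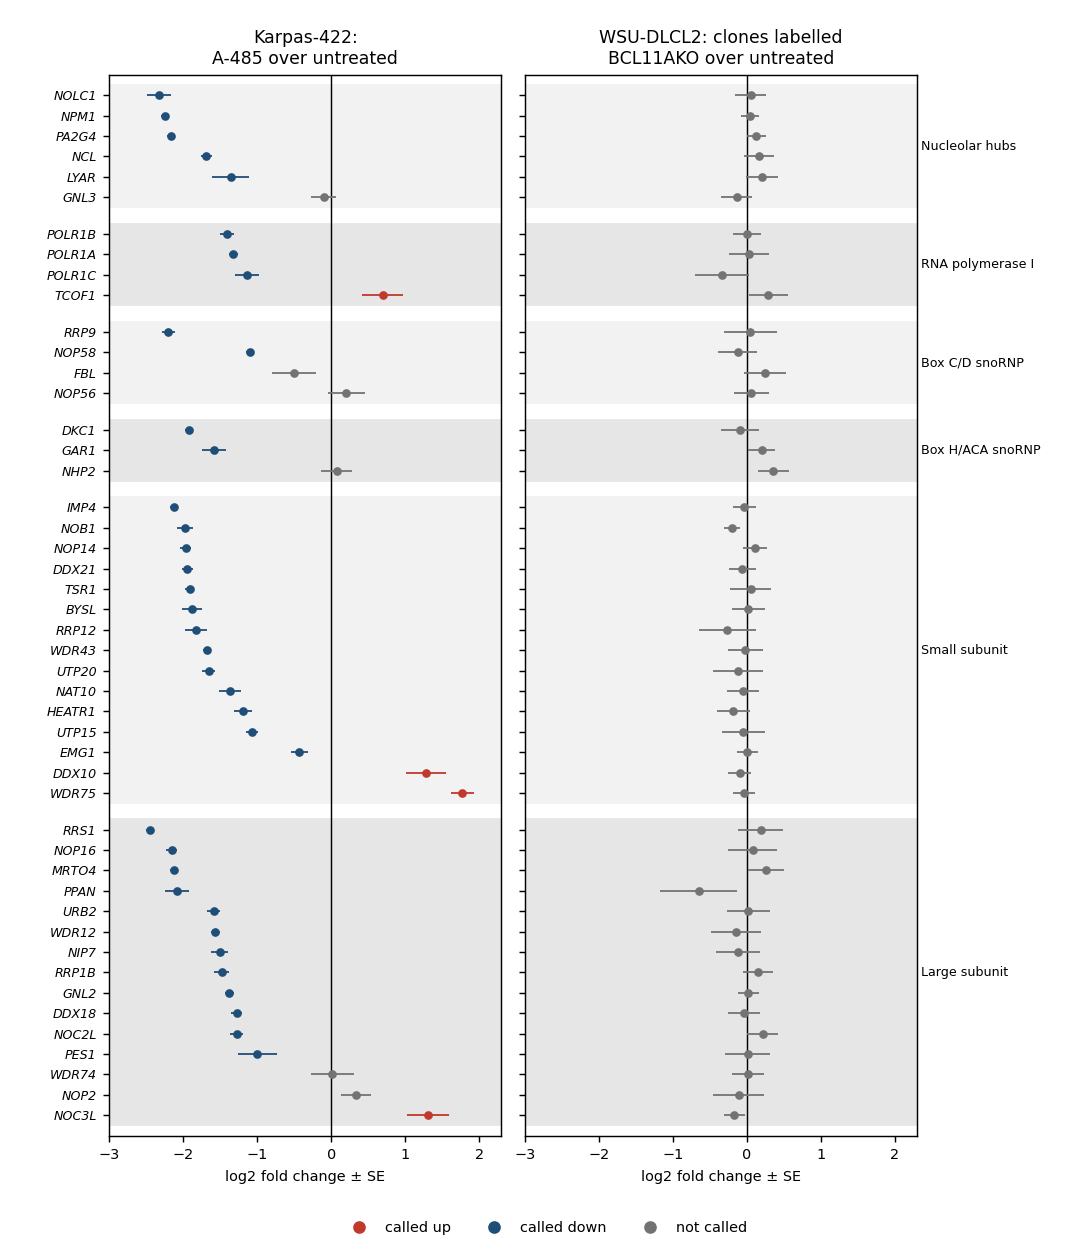
Log2 fold change ± SE of each tested gene, by role, for A-485 over untreated Karpas-422 (left) and clones labelled BCL11AKO over untreated WSU-DLCL2 (right), coloured by call at an adjusted p of 0.05. On the left 37 points are called lower and 4 higher, down to -2.45 for RRS1, and on the right no point is called and all lie between -0.65 and 0.36.

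The genes that rose or were not called had low to middling levels, which some genes that fell shared. NOP56, not called, rested on 114 to 371 counts per library, and LYAR, which fell, on 17 to 51. Mean CPM, which are not corrected for gene length, over both Karpas-422 groups ran from 2.38 to 12.2 CPM for the 4 genes that rose, from 3.78 to 32.0 CPM for the 6 not called, and from 4.09 to 3473 CPM for the 37 that fell. Of the 39 genes with a mean of at least 10 CPM, 35 fell and 1 rose, while of the 8 below it 2 fell and 3 rose. Over all tested genes, those with a mean under 10 CPM were called higher in 2582 and lower in 1013 of 5795 cases, with a median log2 fold change of 0.45, and those at or above it were called higher in 1877 and lower in 2985 of 6051 cases, with a median of -0.20. The log2 fold change ran against the mean level with a Spearman's rho of -0.60 across the 47 genes and -0.34 across all tested genes, as a description over genes of the same 6 libraries.

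**Figure D3:**
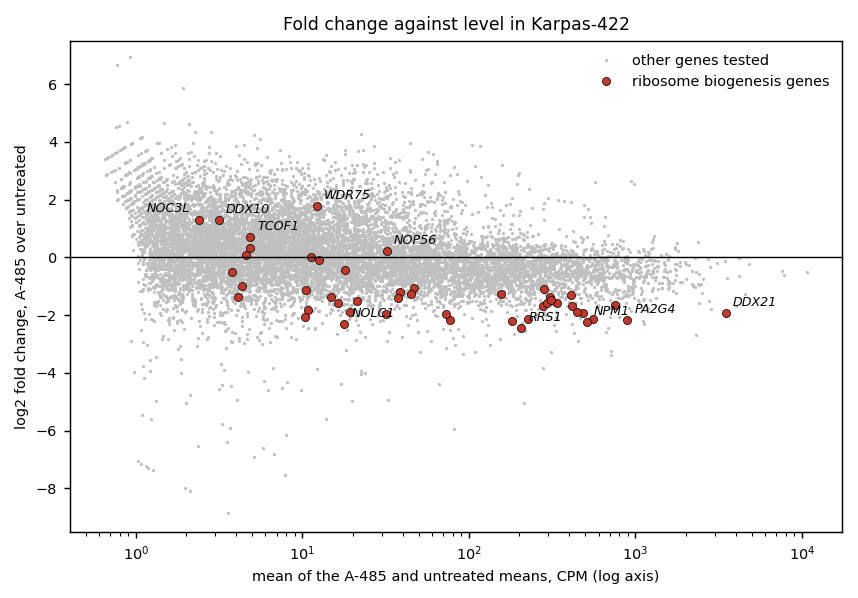
Log2 fold change (A-485 over untreated) against the mean CPM of both Karpas-422 groups (log axis), for the 47 ribosome biogenesis genes (red) and the other tested genes (grey). Most red points lie between -1 and -2.5 at levels above 10 CPM, and the 4 that rose, WDR75, DDX10, NOC3L and TCOF1, lie at 12.2 CPM or less.

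Fold changes also differed by the number of annotated transcripts. Over all tested genes the median log2 fold change was -0.04 for the 2710 with at most 2 transcripts. It was -0.19 for the 3094 with 3 to 6 and 0.29 for the 5694 with more. Spearman's rho between log2 fold change and transcript number was 0.18 across 11498 tested genes and 0.31 across the 47 ribosome biogenesis genes. Across these 47 it was 0.36 with exonic length. These are descriptions, and the part of gene structure was not tested. The 5 ribosome biogenesis genes with at most 2 transcripts (RRP9, RRS1, DDX21, URB2 and RRP1B) all fell, with a median of -1.94. Of the 15 tested genes with 3 to 6 transcripts, 13 fell and 1 rose (median -1.59), and of the 27 with more, 19 fell and 3 rose (median -1.36). Reads outside annotated genes made up 8.25% to 8.91% of reads in the A-485 libraries and 3.61% to 4.54% in the untreated ones, and reads with no unique alignment 48.8% to 49.0% and 54.5% to 55.5%. Their part in the fold changes was not tested. An exon of 20 of the 48 genes overlaps a gene on the opposite strand, and reads of such pairs cannot be told apart where strand was not used.

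Several of the genes hold other genes within them. By GENCODE 29, small nucleolar RNA genes lie inside 9 of the 48 genes (18.8%), against 274 of 19951 protein-coding genes (1.37%). The hosts were NCL, GNL3, POLR1C, NOP56, NOP58, DKC1, WDR43, TSR1 and PPAN, and 7 of these 9 fell (median log2 fold change -1.68), the exceptions being GNL3 and NOP56. Of all 189 tested genes with such a gene inside, 88 fell and 51 rose, with a median of -0.23. Of the 38 tested genes without one, 30 fell and 4 rose (median -1.45). With regard to the promoter windows, 13 of the 17 genes with CACGTG fell, 1 rose (NOC3L) and 3 were not called (GNL3, FBL and NOP2). The median of these 17 was -1.59. Of the 22 genes with a window but no CACGTG, 17 fell, 2 rose and 3 were not called, with a median of -1.36. The 7 genes with TCTCGCG or CGCGAGA held 5 that fell, 1 that rose (NOC3L) and 1 not called (NHP2). MYC itself had 5, 4 and 3 counts in the A-485 libraries, against 44, 44 and 38 in the untreated libraries. The difference was -3.89 on the log2 scale ± 0.29 (SE; adjusted p 3.53e-08, edgeR's quasi-likelihood test). By library total the untreated Karpas-422 libraries stood at 5.37 to 5.63 CPM for MYC. WSU-DLCL2 with A-485 held 6, 10 and 15 MYC counts (0.897 to 2.23 CPM). In the deep libraries MYC stood at 335, 266 and 323 CPM in clones 1 to 3. Untreated WSU-DLCL2 replicates 1 to 3 held 277, 293 and 412 CPM. The MYC fall in Karpas-422 thus rests on few counts, and its part in the lower ribosome biogenesis genes was not tested.

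A wider set of pathway genes was measured beside them. Of 121 other ribosome biogenesis genes tested, 83 fell and 24 rose, with a median log2 fold change of -0.76. Of all 11846 tested genes, 33.7% fell and 37.6% rose, with a median of 0.08. Of 17 further RNA polymerase I genes, 12 fell and 4 rose (median -0.49), with POLR1G, a subunit gene, at 14.0 ± 1.24 CPM with A-485 and 71.7 ± 7.80 CPM untreated (SD, n = 3 each), and of 11 further genes of small nucleolar ribonucleoprotein assembly 9 fell and 1 rose (median -0.76). Log2 fold changes were -2.35 for POLR1G, -0.91 for its fellow subunit POLR1F, and -1.64 and -1.503 for the assembly factors NUFIP1 and NAF1. For the small subunit 30 of 39 further genes fell and 5 rose (median -0.998), and for the large subunit 27 of 41 fell and 8 rose (median -0.89). Examples were PNO1 and WDR3, small-subunit factors that fell by 1.96 and 2.07, and RSL1D1 and RSL24D1, large-subunit factors that fell by 1.90 and 1.34. Ribosomal protein genes fell in 53 and rose in 4 of 75 cases, with a median of -0.72, and RPS21 and RPS23 fell by 1.42 and 1.44. For the RNA exosome, which trims ribosomal RNA precursors, 5 of 13 genes fell and 6 rose (median -0.15), shares near those of all tested genes. EXOSC6 fell by 0.72, and EXOSC10 rose by 3.34 on low levels, 5.19 ± 1.04 CPM with A-485 and 0.478 ± 0.320 CPM untreated. With library totals alone the exosome median turned to 0.26, and all these lists moved up. Of all tested genes, 19.3% were called lower and 54.6% higher under that scaling, with a median of 0.49. Medians were then -0.36 for the 121 other genes (68 lower, 29 higher) and -0.31 for ribosomal protein genes (38 lower, 9 higher). They were -0.09 for the further RNA polymerase I genes (8 lower, 4 higher), -0.36 for ribonucleoprotein assembly, and -0.59 and -0.48 for the small and large subunits.

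WDR75, DDX10 and NOC3L were called higher, and the 9 genes lowered at least 4-fold were called lower, under every scaling and tool tried in Karpas-422 and on leaving out each library, though with library totals alone only RRS1 of the 9 was still at least 4-fold lower (log2 fold change -2.04). Scaling by library totals alone moved the median of all tested genes up by 0.41 on the log2 scale, to 0.49, and called 35 of the 47 genes lower (19.3% of all genes) and 5 higher (54.6% of all genes), with a median of -1.07.

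WSU-DLCL2 with A-485 could be set only beside the shallow Karpas-422 libraries, and levels alone are given, as CPM by library total. Summed over the genes, they reached 14067 to 14627 CPM in WSU-DLCL2 with A-485, against 5651 to 5721 CPM in Karpas-422 with A-485 and 14473 to 15307 CPM in untreated Karpas-422. Of 47 genes, 39 stood higher in every WSU-DLCL2 library than in any A-485 library of Karpas-422, 3 stood lower and 5 overlapped. Beside untreated Karpas-422, 13 stood higher, 15 lower and 19 overlapped. NPM1 stood at 778, 725 and 754 CPM in WSU-DLCL2 with A-485, against 202, 204 and 203 CPM in Karpas-422 with A-485 and 750, 717 and 721 CPM in untreated Karpas-422. RRS1 stood at 272, 308 and 281 CPM in WSU-DLCL2 with A-485, against 71.7, 75.5 and 71.7 CPM in Karpas-422 with A-485 and 306, 292 and 307 CPM in untreated Karpas-422. For both genes the WSU-DLCL2 libraries thus overlapped untreated Karpas-422 and lay well above treated Karpas-422. PA2G4 lay between, at 850, 844 and 851 CPM in WSU-DLCL2 with A-485, against 386, 367 and 368 CPM in Karpas-422 with A-485 and 1310, 1272 and 1213 CPM in untreated Karpas-422. The 3 genes below treated Karpas-422 were WDR75, NHP2 and WDR12. WDR75 stood at 12.7, 10.02 and 12.7 CPM in WSU-DLCL2 with A-485, against 19.8, 20.5 and 24.8 CPM in Karpas-422 with A-485 and 5.13, 4.99 and 4.17 CPM in untreated Karpas-422. NOC3L stood highest in WSU-DLCL2 with A-485, at 9.87, 9.17 and 6.7 CPM, against 4.36, 3.71 and 3.61 CPM in Karpas-422 with A-485 and 1.1, 0.896 and 1.58 CPM in untreated Karpas-422. No untreated WSU-DLCL2 library of this kind was analysed here, so no effect of A-485 in that line is given.

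**Figure D4:**
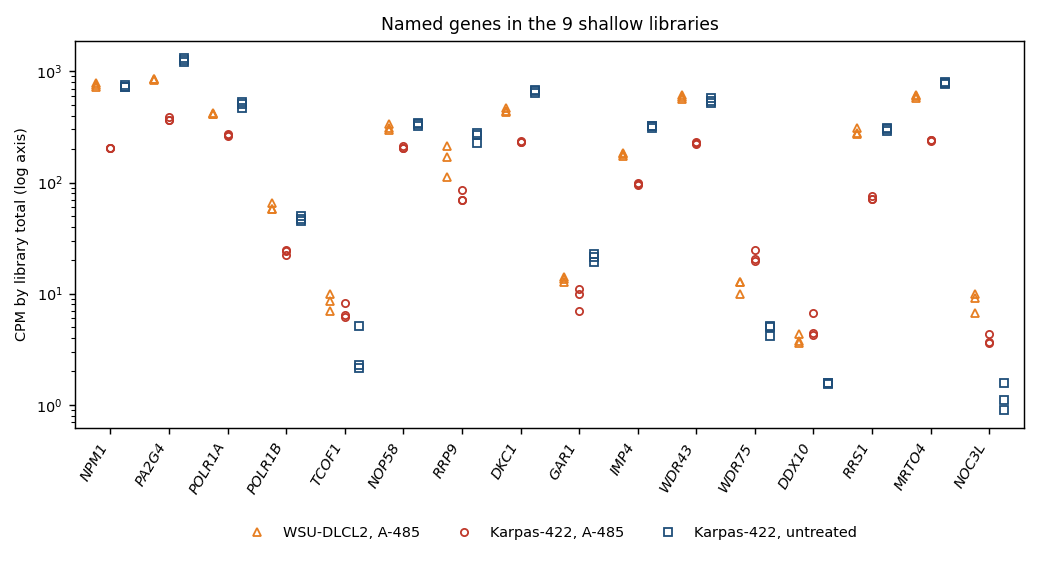
CPM by library total (log axis) of 16 named genes in the 9 shallow libraries, with triangles for WSU-DLCL2 with A-485, circles for Karpas-422 with A-485 and squares for untreated Karpas-422. The triangles of NPM1 (725 to 778 CPM) lie at the level of the squares, and those of WDR75 lie between circles and squares.

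The order of the genes by level was compared between groups. Spearman's rho over the mean levels of the 47 genes was 0.96 between WSU-DLCL2 with A-485 and Karpas-422 with A-485, and 0.97 between WSU-DLCL2 with A-485 and untreated Karpas-422. It was 0.45 between WSU-DLCL2 with A-485 and untreated WSU-DLCL2 (0.41 without untreated replicate 3), and 0.34 between the untreated lines (0.30), as descriptions over genes that share libraries. Of the 47 genes, 13 stood at least 10-fold lower in untreated Karpas-422 than in untreated WSU-DLCL2, with or without its replicate 3. FBL averaged 3.85 CPM in untreated Karpas-422 and 251 CPM in untreated WSU-DLCL2 (302 without replicate 3), while PA2G4 averaged 1265 CPM in Karpas-422 and 221 CPM in WSU-DLCL2 (220.1). These values do not separate the line from the kind of library, and the 2 cannot be told apart.

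In the clones labelled BCL11AKO, no ribosome biogenesis gene was called against untreated WSU-DLCL2. BCL11A was not lower in the clones, at 58.8, 69.6 and 51.9 CPM in clones 1 to 3, against 46.8, 45.7 and 73.5 CPM in untreated replicates 1 to 3 (log2 fold change 0.13 ± 0.21, SE, and 0.37 ± 0.12 without replicate 3, neither called), so the counts do not check the label of the edit, which need not lower the transcript. All 47 genes passed the filter and 0 passed the threshold, where 0.0% of the 16152 tested genes did (edgeR's quasi-likelihood test). At an unadjusted p under 0.05 there were 0 of the 47 and 1117 of all genes (6.92%). DESeq2 called 297 of all genes, 1.58% of those it tested, and limma-voom 2, and neither called any of the 47. The median log2 fold change was 0.01, and values ran from -0.65 ± 0.52 for PPAN to 0.36 ± 0.21 for NHP2 (SE). A p that misses the threshold does not show that levels were alike, but the 95% intervals give bounds. They excluded a 2-fold rise for 47 of the 47 genes and a 2-fold fall for 44, the exceptions being POLR1C, RRP12 and PPAN. Without untreated replicate 3 they excluded a 2-fold rise for 43, all but RRP9, RRS1, NOP16 and MRTO4, and a 2-fold fall for 46, all but WDR12.

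Levels in the clones overlapped those of the untreated libraries in 45 of 47 genes, where 16.5% of all tested genes had no overlap. Set against untreated replicates 1 and 2 alone, they overlapped in 42 of the 47, where 40.3% of all tested genes had no overlap. NPM1 stood at 970, 814 and 976 CPM in the clones, against 882, 933 and 867 CPM in the untreated libraries. PA2G4 stood at 252, 206 and 266 CPM in the clones, against 218, 226 and 219 CPM untreated. In both genes clone 2 was the lowest of the 6 libraries, while clones 1 and 3 were the highest. Values of NHP2 were 53.0, 52.4 and 60.3 CPM in the clones, against 48.1, 51.0 and 30.2 CPM untreated, all clones being higher. NOB1 was the reverse, at 65.1, 64.3 and 67.9 CPM in the clones, against 77.7, 80.0 and 69.5 CPM untreated. Neither passed the threshold, with adjusted p of 0.830 for NHP2 and 0.820 for NOB1 by edgeR's quasi-likelihood test, and 0.408 and 0.127 without untreated replicate 3. LYAR stood at 130, 75.8 and 123 CPM in the clones, against 94.9, 103 and 89.4 CPM untreated, and GAR1 at 74.2, 49.3 and 74.0 CPM in the clones, against 57.5, 58.8 and 55.8 CPM untreated. Both had clones on either side of the untreated libraries. NOC3L stood at 117, 86.5 and 102 CPM in the clones, against 110, 112 and 122 CPM untreated, with overlap as well. The log2 fold changes were 0.20 ± 0.22 for LYAR, 0.20 ± 0.18 for GAR1 and -0.17 ± 0.14 for NOC3L (SE), and 0.15, 0.18 and -0.12 without replicate 3.

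The directions depended on single libraries, among them untreated replicate 3, the library with conflicting labels. It also stood apart over all tested genes, being the lowest of the 6 libraries in 35.6% and the highest in 36.6%. Each other library was lowest in 11.1% to 13.7% and highest in 11.3% to 15.4%. With replicate 3, 26 of the 47 log2 fold changes were positive and 21 negative. Without it 40 were positive and 7 negative, the sign of 16 genes having turned. Leaving out any other library also turned the signs of several genes with small fold changes. DKC1 went from -0.099 to 0.067 without clone 2, and PES1 from 0.0061 to -0.14 without untreated replicate 1. POLR1C stood at 31.7, 23.1 and 35.9 CPM in the clones, against 27.5, 26.2 and 60.8 CPM in untreated replicates 1 to 3, and HEATR1 at 262, 203 and 257 CPM in the clones, against 222, 233 and 366 CPM. PPAN stood at 5.04, 3.4 and 5.22 CPM in the clones, against 3.95, 4.29 and 13.3 CPM. In these 3 genes the third untreated library was the highest of the 6, and without it their log2 fold changes were 0.17, 0.08 and 0.14, against -0.33, -0.19 and -0.65 with it. TCOF1 and FBL were lowest in that library, at 226, 156 and 224 CPM in the clones against 191, 195 and 111 CPM untreated for TCOF1, and 308, 260 and 329 CPM in the clones against 299, 310 and 147 CPM untreated for FBL. Without replicate 3, 351 of 16607 genes were called (2.11%), still with 0 of the 47, whose median log2 fold change was then 0.17. At an unadjusted p under 0.05 there were then 2 of the 47, NOB1 and RRS1, and 19.0% of all genes. The lowest adjusted p among them was 0.127, for NOB1 (edgeR's quasi-likelihood test). Of the other 127 pathway genes, 0 were called with replicate 3 and 1 without it (UTP3, a small-subunit factor named after its value was seen).

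Clone 2 stood apart from the other clones across the pathway. It was the lowest of the 6 libraries in 39 of the 47 genes, a position it held in 12.7% of all tested genes, and with untreated replicate 3 left out the lowest in 41, against 19.99% of all. The median deviation from each gene's mean over the 6 libraries, on the log2(CPM + 0.5) scale, was 0.16, -0.34 and 0.20 in clones 1 to 3, against -0.19, -0.13 and 0.30 in untreated replicates 1 to 3. Replicate 3 of the untreated line was the highest of the 6 in 29 of the 47 genes, against 36.6% of all tested genes. Summed over the genes, the CPM by library total were 12382, 8892 and 12197 in the clones, against 9798, 10115 and 12810 in the untreated libraries. The spread among clones was thus wider than the difference between the groups. NOP58 shows it, at 296, 143 and 194 CPM in the clones, against 222, 223 and 247 CPM untreated, with a log2 fold change of -0.13 ± 0.26 (SE) that turned to 0.082 without clone 2 and was -0.073 without untreated replicate 3.

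**Figure D5:**
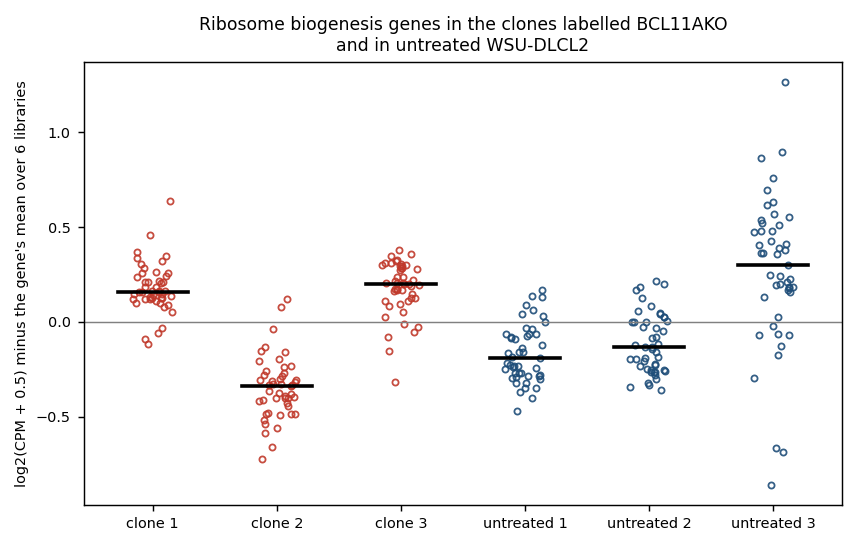
Deviation of each of the 47 genes from its own mean over 6 libraries, on the log2(CPM + 0.5) scale, in clones 1 to 3 labelled BCL11AKO (red) and untreated WSU-DLCL2 replicates 1 to 3 (blue), with a bar at the median. Clone 2 has a median of -0.34, the lowest of the 6, and untreated replicate 3, whose labels conflict, has the highest at 0.30.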

How the data were processed

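The authors deposited RNA-seq read counts per gene, with 1 table per library (15 in all). STAR 2.5.3a, RSEM and GRCh37 (hg19) are listed in the submitters' processing notes. The names of the tables call them htseq counts, and each table closes with the lines on uncounted reads that htseq-count writes. Its version and strand setting, the annotation and the library kit were not given in the sources used here. All values are whole and were taken as raw counts. For untreated WSU-DLCL2 replicate 3 the labels list 3 sequencing runs that shared 1 table and were 1 library. Symbols came from GENCODE 29 and a gene name table (52526 of 63677 genes matched; the others held 0.862% of counts). GENCODE 29 is on GRCh38 and gave names, transcript numbers and overlaps only. Lines for reads outside genes, ambiguous or not uniquely aligned stayed out of library sizes.

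Comparisons used edgeR 4.0.16 under R 4.3.3 (filterByExpr, TMM scaling, robust quasi-likelihood fits, two-sided tests, Benjamini-Hochberg adjustment over all genes kept, threshold 0.05), each on its 2 groups. The fits were also run on simulated counts with few genes changed, equally up and down, and a fixed spread. That setting is simpler than these data and does not test the fits under changes as wide as those in Karpas-422. CPM within a comparison are TMM-scaled, and those across lines use library totals. Alternatives were other scalings, no filter, DESeq2 1.42.0, limma-voom (limma 3.58.1), a replicate block, leaving out each library, and subsets by transcript number and, chosen after seeing the data, by level (10 CPM). Counts are of reads and not of molecules, so intervals cover the spread between libraries or counting error only. In no replicate pair did the libraries differ as little as sampling noise (lowest chi-square per gene 1.20). That value was 2.66 between untreated WSU-DLCL2 replicates 1 and 2, but 201 and 212 between these and replicate 3. Among the clones it ran from 20.3 to 40.9.

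The genes, lists and tests were chosen with earlier results of these data known. Values in every library were given for the 2 genes of each role with the smallest p and for those called against most of their role; the DDX21, FBL, NOP56 and NOC3L values, NPM1 in the clones, and those shared with WSU-DLCL2 were added after their values were seen. Up to 2 genes per pathway list are named, by smallest p. ZNHIT3, AATF, DDX52 and NOL12 were not matched. BOP1 and the genes with no RefSeq window were not analysed there.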

Additional observations from a re-analysis of the deposited data

Results flagged for a closer look

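Reads outside annotated genes, which enter none of the comparisons, made up a mean of 8.69% ± 0.375 of reads in Karpas-422 with A-485 and 3.92% ± 0.538 in untreated Karpas-422 (SD, n = 3 each). Every A-485 library exceeded every untreated one. The part of these reads in the fold changes of the ribosome biogenesis genes was not tested.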

How the results depend on the processing

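In Karpas-422 the 47 genes had a median log2 fold change of -1.53 with DESeq2's size factors, -1.54 with DESeq2 and -1.07 with library totals alone, where 2290 of all genes were called lower in place of 3998. On leaving out 1 library at a time the median ran from -1.52 to -1.41, with 37 to 38 of the genes called lower and 3 to 6 higher. Of all genes 4459 were called higher, and 6465 with library totals alone. Without untreated replicate 1 WDR74 was called higher (0.55) and without untreated replicate 2 FBL was called lower (-0.74). In the clones, no filter gave 1 gene higher and 19 lower among all genes, DESeq2 43 and 254, and limma-voom 0 and 2, while leaving out 1 library gave 0 to 70 higher and 0 to 281 lower, the 70 and 281 without untreated replicate 3. None of these called any of the 47 genes. Among the 2 genes of each role with the smallest p in the clones, NOP58 turned sign without clone 2. Its log2 fold change ran from -0.45 to 0.082 on leaving out 1 library. Without untreated replicate 3 the signs of POLR1C (range -0.53 to 0.17), FBL (-0.026 to 0.42), HEATR1 (-0.31 to 0.083) and PPAN (-0.94 to 0.14) turned. Others of the 47 genes also turned sign on leaving out each of the clones and each of the untreated replicates. The median over the 47 genes was 0.13 without clone 2. The cause of these differences was not tested. Replicate numbers were not used as pairs in the main fits. Same-numbered libraries had correlations of deviations of 0.02, 0.06 and -0.04 in Karpas-422 and 0.10, 0.03 and 0.23 in the clones comparison. Differently numbered ones ran from -0.09 to 0.07 and from -0.23 to 0.12. With 3 libraries per group these values cannot show whether libraries were paired. With a replicate block, 4346 genes were called higher and 3904 lower in Karpas-422, with 37 of the 47 lower and 4 higher (median -1.47), and 0 genes in the clones (median 0.00). Of the 8 genes below 10 CPM, a cut chosen after seeing the data, 3 rose, and the part of depth in this was not tested.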
